A study of Mus musculus with 4 samples.

Results

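Sparc, Ccn1, Ccn2 and Tnc encode matricellular proteins, and their expression was compared between an NIH3T3 line transfected with Erbb2, which overexpresses this receptor tyrosine kinase, and the untransfected NIH3T3 line. NIH3T3 is an established line of mouse embryonic fibroblasts. The genes were taken by symbol from the annotation of the array: 10 of the 14030 probes with 1 gene symbol belonged to them, and all 4 genes were among the 6327 genes with a value on every array. RNA of both lines was hybridised together on 4 cDNA arrays, with the transfected sample in Cy5 on arrays 1 and 2 and in Cy3 on arrays 3 and 4. The submitters describe the arrays as technical replicates, so there was 1 sample per line, and errors and p-values below cover the spread between arrays only. The sources used here do not say which promoter drove Erbb2 or whether the transfected line was 1 clone or a pool.

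Matricellular proteins are secreted into the extracellular matrix, where they bind structural proteins, growth factors and cell surface receptors while adding little to the mechanical scaffold itself. In fibroblasts they regulate adhesion, spreading, migration and the deposition of collagen. SPARC (osteonectin) binds collagens and assists their assembly into fibrils. CCN1 (Cyr61) and CCN2 (connective tissue growth factor) are cysteine-rich ligands of integrins and heparan sulphate proteoglycans. Their genes respond early to serum and growth factors and are known targets of TGF-beta signalling, of the YAP and TAZ coactivators that work with TEAD factors, and of serum response factor (SRF). Tenascin C, the product of Tnc, is a large multimeric glycoprotein that modulates the adhesion of cells to fibronectin.

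Values are log2 ratios of both channels, and a value of -1 stands for a 2-fold lower signal. The likely direction, from the dyes in the labels and the sign of the capped ratios, is transfected over untransfected, and every sign below would turn if it were the reverse. The arrays give ratios and no level, so the abundance of the 4 mRNAs, their order of expression and the fibroblast identity of the lines could not be read from them. No probe was named for Erbb2 (0 probes), so the transfected gene was not analysed here.

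The upstream sequences of 3 of the 4 genes were taken from RefSeq (GRCm38.p6). They are shown because Ccn1 (ratios below 0 on every array) and Tnc (ratios near 0) both hold the letters TATAAA while Sparc does not. Whether these letters bear on the ratios was not tested. Each sequence is the 250 bases before a transcription start, and Tnc has 2 annotated starts, of which the upstream one is printed. Capitals mark matches to the TATA box TATAAA and the TEAD element GGAATG, searched on both strands.
Sparc, chr11:55420081-55420330, minus strand: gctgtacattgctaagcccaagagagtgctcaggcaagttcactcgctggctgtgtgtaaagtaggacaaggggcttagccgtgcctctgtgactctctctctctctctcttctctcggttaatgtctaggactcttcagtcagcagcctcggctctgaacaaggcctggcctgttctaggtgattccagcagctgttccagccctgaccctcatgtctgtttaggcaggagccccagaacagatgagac
Ccn1, chr3:145649986-145650235, minus strand: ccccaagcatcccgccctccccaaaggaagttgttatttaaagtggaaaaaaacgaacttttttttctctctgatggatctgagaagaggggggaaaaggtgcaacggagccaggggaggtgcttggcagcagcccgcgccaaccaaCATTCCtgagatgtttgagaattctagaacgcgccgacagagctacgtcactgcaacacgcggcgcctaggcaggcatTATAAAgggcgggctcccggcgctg
Tnc, chr4:64047016-64047265, minus strand: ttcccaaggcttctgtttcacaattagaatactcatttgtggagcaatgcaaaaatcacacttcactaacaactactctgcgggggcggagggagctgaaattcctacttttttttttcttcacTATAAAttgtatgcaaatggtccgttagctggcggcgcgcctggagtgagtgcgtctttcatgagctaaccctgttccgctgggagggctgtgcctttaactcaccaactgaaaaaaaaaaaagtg
The TATAAA match of Ccn1 begins at position -25, where a TATA box is usual. That of Tnc begins at position -126 from this start and -205 from its other start. Close to that other start, whose window is not printed, Tnc also holds the letters TATATAA, which were not searched for. Ccn1 also has the TEAD element on the opposite strand, beginning at position -103. Of 32851 upstream sequences of this length in the same table, 12.4% hold TATAAA and 12.6% hold GGAATG. The AP-1 site TGANTCA (6.75% of sequences) and the CArG box, the element bound by SRF (1.47%), were searched on both strands as well, and these letters were not found in the windows of the members. A match is a run of letters and not a measured site.

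By gene mean, with the probes of a gene averaged, the members fell into an order of size. Sparc had the mean furthest below 0, at -3.14 ± 0.42 (SD over 4 arrays), followed by Ccn1 at -2.35 ± 1.87, Ccn2 at -1.72 ± 1.24 and Tnc at -0.28 ± 0.21. Sparc, Ccn1 and Ccn2 were below 0 on all 4 arrays, as were 13% of all genes tested, and all 3 had a mean of -1 or below, as did 7.7% of genes. Tnc was below 0 on 3 arrays. By rank from the lowest mean among the 6327 genes, Sparc stood at 13, Ccn1 at 37, Ccn2 at 113 and Tnc at 2259. The median of all genes was -0.08. The order does not hold for single probes: Ccn1 probe 1 (mean -3.52) and Ccn2 probe 2 (-3.87) lay below every Sparc probe mean. No pair of members passed an exact sign permutation test over arrays (adjusted p = 0.375 for each of 6 pairs). With 4 arrays that test cannot give an unadjusted p under 0.125.

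None of the 4 genes passed the test across all genes. Limma, fitted with a mean and a dye term, called 0% of the genes tested at a Benjamini-Hochberg adjusted p under 0.05, and 730 genes had an unadjusted p under 0.05. Of all genes, 7.49% reached that unadjusted level with a mean below 0 and 4.05% with a mean above 0, and Sparc, Ccn1 and Ccn2 were among those below 0. The smallest adjusted p over the table was 0.105.

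**Figure D1:**
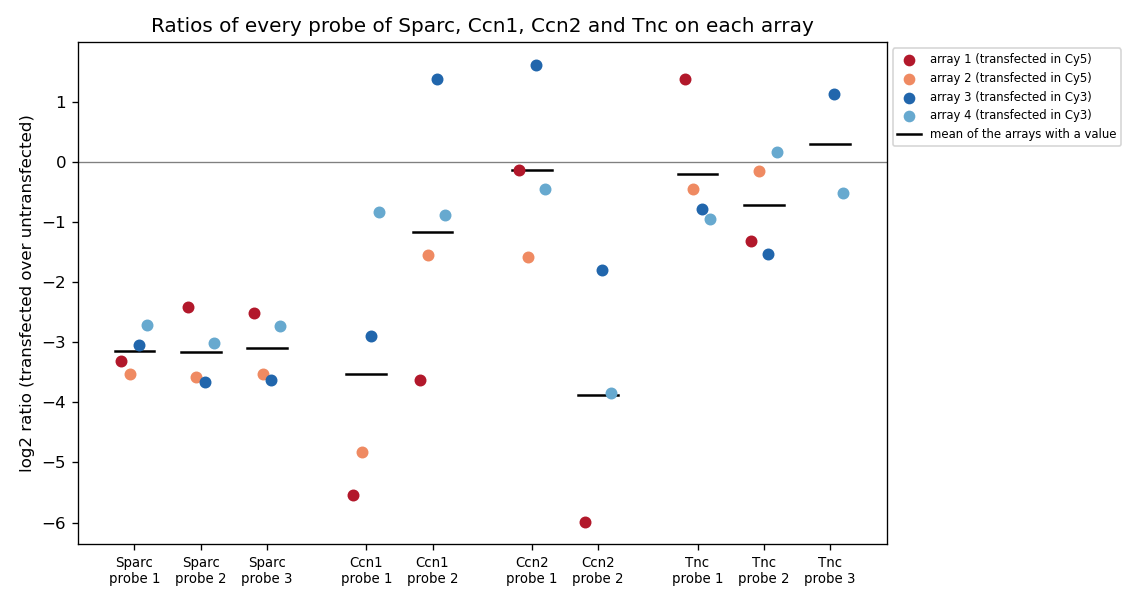
Log2 ratio (vertical axis, transfected over untransfected) of each of the 10 probes of the 4 genes, with 1 point per array and a bar at the mean of the arrays with a value. The 3 Sparc probes lie between -3.66 and -2.41 on every array, whereas the probes of Ccn1 and of Ccn2 lie apart from each other and those of Tnc scatter about 0.

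Sparc had ratios of -2.75, -3.55, -3.44 and -2.82 on arrays 1 to 4. All were far below 0, and the arrays differed by less than 1 unit. The mean corresponds to an 8.82-fold lower signal in the transfected line (limma, 95% interval of the log2 ratio -3.94 to -2.34, SE 0.31, adjusted p = 0.127). Without the dye term the adjusted p was 0.0418 at the same mean.

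The 3 Sparc probes were close to one another. Probe 1, in the first rows of the table, had -3.31, -3.54, -3.05 and -2.72 on arrays 1 to 4. Probe 2, in the lower rows, had -2.41, -3.59, -3.66 and -3.02. Probe 3, also in the lower rows, had -2.51, -3.54, -3.62 and -2.73. Each probe was thus below -2 on every array, with means of -3.15, -3.17 and -3.10. The SD between the probe means was 0.04, against a median of 0.35 over the 1179 genes with 2 or more probes measured on every array, and 4.66% of these genes had a smaller one.

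Probes 2 and 3 lie in rows where arrays 2 to 4 had to be read 3 rows higher than array 1. As deposited, probe 2 had 1.03, -0.36 and -0.94 on arrays 2 to 4, and probe 3 had 4.09 and -3.48 on arrays 2 and 3 and no value on array 4. Read 3 rows higher, the mean of arrays 2 to 4 was -3.42 for probe 2 and -3.30 for probe 3. Read 4 rows higher it was -0.02 and -0.01, and with no move -0.09 and 0.30. Over offsets of -2 to 8 rows, each probe had its lowest mean of arrays 2 to 4 at 3 rows. The 3-row reading is the rule used for all rows of this block. The scan describes its effect and is no separate support for the low ratio of Sparc. Tnc probe 3, also in moved rows, was not scanned. With every row as deposited, the mean of Sparc was -1.59 (limma, adjusted p = 0.591), since 2 of its probes then took their values from other spots.

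**Figure D2:**
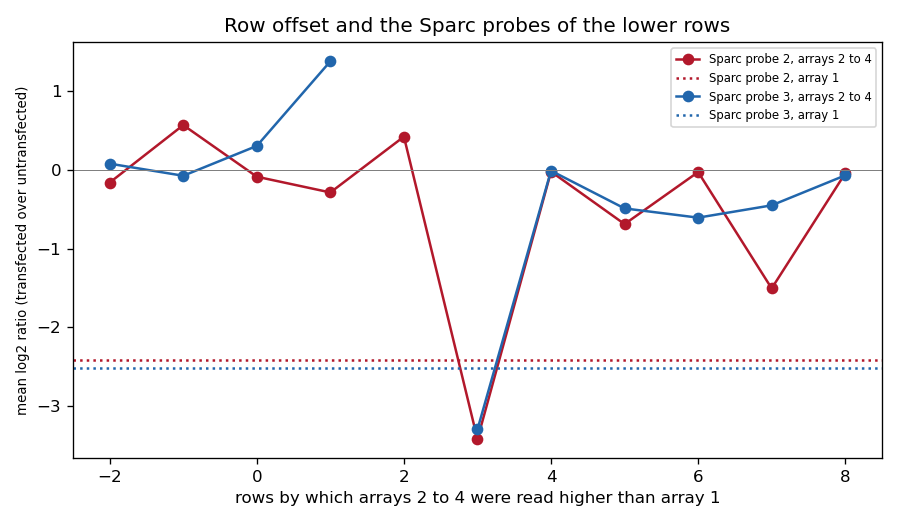
Mean log2 ratio of arrays 2 to 4 (vertical axis) for Sparc probes 2 and 3 when these arrays are read a number of rows higher than array 1 (horizontal axis), with the ratio on array 1 as a dotted line. Both probes drop to -3.42 and -3.30 at 3 rows, near their array 1 values of -2.41 and -2.51, and lie between -1.51 and 1.38 at every other offset with a value.

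Ccn1 had ratios of -4.59, -3.19, -0.76 and -0.86 on arrays 1 to 4. Both arrays with the transfected sample in Cy5 were far below both arrays with it in Cy3. How many of all genes had their arrays split by orientation in this way is not given here. The mean was -3.89 in the Cy5 orientation, a 14.8-fold lower signal, and -0.81 in the Cy3 orientation, a 1.75-fold lower one. Over all arrays the fitted mean of -2.35 had a 95% interval of -3.23 to -1.47 (limma, adjusted p = 0.207).

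The dye coefficient of Ccn1, which is the distance of each orientation from the mean, was -1.54, and 1.71% of genes had a larger one in size. It did not pass over all genes (limma, adjusted p = 0.868), and nor did the dye coefficient of any other gene, with 0% called and 336 genes at an unadjusted p under 0.05. In the Cy5 orientation Ccn1 ranked at 8 from the lowest of all genes, and in the Cy3 orientation at 1301.

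Both Ccn1 probes lie in the first rows and were measured on every array. Probe 1 had -5.54, -4.83, -2.89 and -0.84 on arrays 1 to 4. Probe 2 had -3.64, -1.55, 1.37 and -0.88. Probe 2 was above 0 on array 3, so the gene's ratio below 0 on that array came from probe 1. Probe 1 minus probe 2 was -1.90, -3.28 and -4.26 on arrays 1 to 3, and on array 4 the probes differed by 0.05. The probe means were -3.52 and -1.18, and 99.0% of genes with 2 or more probes had a smaller SD between probe means than the 1.66 of Ccn1. Within each probe, both Cy5 arrays were below both Cy3 arrays for probe 1 and for probe 2.

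Ccn2 had ratios of -3.06, -1.58, -0.09 and -2.15 on arrays 1 to 4. Array 3 was close to 0 and the others were well below it. The fitted mean of -1.72, a 3.29-fold lower signal, had a 95% interval of -2.93 to -0.51 (limma, adjusted p = 0.379). The orientation means were -2.32 with the transfected sample in Cy5 and -1.12 with it in Cy3, and the orientations overlapped. The dye coefficient of -0.60, which 20.9% of genes exceeded in size, was -0.08 without array 3, -0.23 without array 1, -0.97 without array 2 and -1.11 without array 4. It was -1.16 with 1:1 ratios set to 0.

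The mean of Ccn2 rests mostly on 1 of its 2 probes. Probe 1 had -0.13, -1.58, 1.61 and -0.45 on arrays 1 to 4, with a mean of -0.14 ± 1.32. Probe 2 had -5.98, -1.79 and -3.85 on arrays 1, 3 and 4 and no value on array 2, with a mean of -3.87 ± 2.10. On the 3 arrays with both, probe 1 exceeded probe 2 by 5.85, 3.40 and 3.39. On array 3 the probes lay on opposite sides of 0 and nearly cancelled, and the gene's ratio on array 2 came from probe 1 alone. The probes of this gene thus gave a ratio near 0 and one far below 0, and which of them measured Ccn2 was not tested. With probe 1 alone the gene had an adjusted p of 0.924 in limma, an alternative chosen after the data were seen.

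Tnc had ratios of 0.03, -0.30, -0.40 and -0.43 on arrays 1 to 4. All lay close to 0, and array 1 was on the other side of 0 from the rest. The fitted mean was -0.28 with a 95% interval of -0.98 to 0.43 (limma, adjusted p = 0.721). Of all genes, 3.87% had a smaller SD between arrays than the 0.21 of Tnc. This SD is that of the averaged probes, which varied more between arrays when taken singly.

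The single probes of Tnc were further apart. Probe 1 had 1.38, -0.45, -0.78 and -0.94 on arrays 1 to 4, probe 2 had -1.33, -0.16, -1.53 and 0.17, and probe 3, in the last rows, had 1.12 on array 3 and -0.52 on array 4 and no value on the others. On array 1 probes 1 and 2 lay on opposite sides of 0 and nearly cancelled. On array 3 probe 3 lay on the other side of 0 from probes 1 and 2 and drew the gene's ratio towards 0. The small SD of the gene thus does not show that its probes were reproducible. The probe means were -0.20 ± 1.07, -0.71 ± 0.84 and 0.30 ± 1.16.

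**Figure D3:**
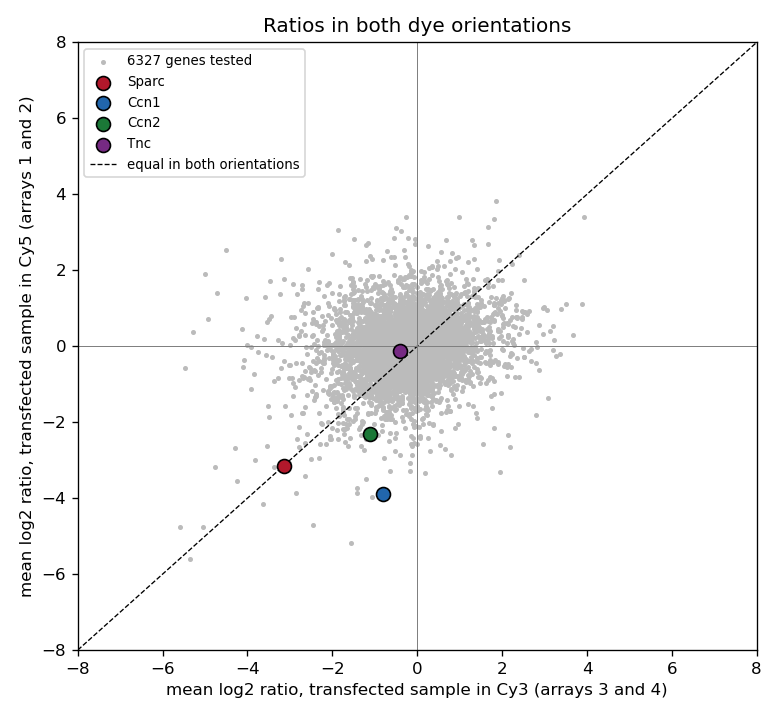
Mean log2 ratio of each gene with the transfected sample in Cy5 (vertical axis, arrays 1 and 2) against the mean with it in Cy3 (horizontal axis, arrays 3 and 4), with the 6327 genes tested in grey and the dashed line at equal means. Sparc lies on the line at -3.15 and -3.13, Ccn1 lies below it at -3.89 and -0.81, Ccn2 at -2.32 and -1.12, and Tnc is near the origin.

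On the deposited scale the orientation means of Sparc were -3.15 with the transfected sample in Cy5 and -3.13 with it in Cy3, and 98.8% of genes had a larger dye coefficient in size. This closeness depends on the constant taken for each array. The dye coefficient of Sparc was -0.01 as deposited and -0.10 with arrays centred on their medians. It was -0.57 with the value of a 1:1 ratio on each array set to 0 (limma, adjusted p = 0.391), an alternative chosen after the data were seen. That value was read from the capped ratios on an assumed size of the cap. Its removal moved the dye coefficient of every gene by the same amount. The ratios of the members were also set against each other on each array. Sparc was below Tnc on every array, with differences of -2.77, -3.25, -3.05 and -2.39 (exact sign permutation test over arrays, two-sided p = 0.125, adjusted p = 0.375 over 6 pairs). Ccn1 was below Tnc on every array as well, with differences of -4.61, -2.89, -0.36 and -0.43 (the same exact p = 0.125, adjusted p = 0.375). With 4 arrays 0.125 is the smallest p this test can give. Of neighbours in the order, Sparc and Ccn1 (difference -0.79 ± 2.01) and Ccn1 and Ccn2 (-0.63 ± 1.35) did not differ beyond their spread. Ccn2 minus Tnc was -1.44 ± 1.40, about the size of its spread, and was below 0 on 3 of the 4 arrays (exact sign permutation test, two-sided p = 0.25, adjusted p = 0.375).

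The genes whose ratios were most like those of each member were found by Euclidean distance over the 4 arrays. Gstm1, a glutathione S-transferase gene, was closest to Sparc (distance 0.67, mean log2 ratio -3.05 ± 0.72). Igfbp4, which encodes a binding protein of insulin-like growth factors (0.99, mean -2.72 ± 0.27), and the disulphide isomerase gene Pdia6 (1.16, mean -2.64 ± 0.61) followed. Ccn1 had no gene as close: the membrane repair gene Dysf lay at 1.33 (mean -1.96 ± 1.55), the receptor phosphatase gene Ptprs at 2.26 and Stab1 at 2.51. Ccn2 was nearest to Hacl1 (1.10), Pqlc3 (1.16) and again Stab1 (1.20). Tnc, in the dense middle of the table, was nearest to Atxn3 (0.14), Srp54a (0.22) and Hba-a1 (0.25).

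The other matricellular genes measured on every array had means between -1.14 and 0.88. Of 29 further family genes listed, 19 had a probe and 8 a value on every array, with a median of -0.26 against -0.08 for all genes. Of these 8, 3 were below 0 on all 4 arrays, as were 13% of all genes, and 1 was above 0 on all 4 (9.58% of all genes were). The other 4 had mixed signs, and 0 were called. Mfge8, which encodes an integrin-binding glycoprotein that bridges phagocytes to apoptotic cells, had -0.70, -1.66, -1.45 and -0.75 on arrays 1 to 4. The SPARC family genes Smoc2 and Fstl1 had means of -0.73 ± 0.73 and -0.71 ± 0.47. Smoc2 had -0.12 in the Cy5 orientation and -1.34 in the Cy3 orientation, and Fstl1 had -0.99 and -0.42. Sparcl1, the closest relative of Sparc, had -0.005 ± 0.91 with mixed signs. Lgals3, the gene of galectin 3, had 1.70, 0.13, 0.15 and 0.23, so its mean of 0.55 rests mostly on array 1. Tnn, which encodes tenascin N, had 0.88 ± 0.63. Sparcl1 and Tnn were named as relatives of the members after their values were seen.

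A further 10 family genes had values on 1 to 3 arrays and were not tested. Fbln5, which encodes an elastic fibre protein, had -5.12, -3.96 and -4.41 on arrays 1, 2 and 4. Its values lay further below 0 than those of any other of these 10 genes, and it was named after they were seen. Tnxb, the tenascin X gene, had -0.01, -0.24 and -2.46 on the same arrays. The remaining genes ranged from a mean of -0.70 for Comp to 1.33 for Thbs1, which had a value on array 3 alone.

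**Figure D4:**
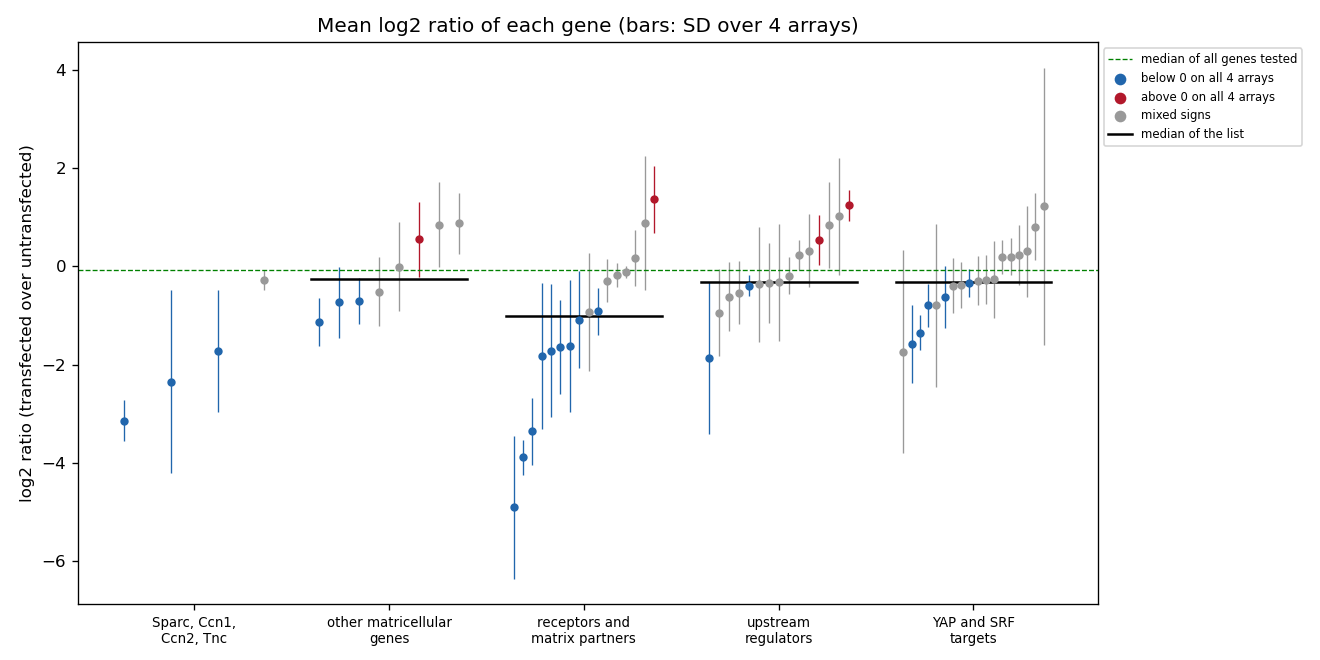
Mean log2 ratio of each gene (points, bars of 1 SD over the 4 arrays) for the 4 members and for 4 lists of related genes, coloured by whether the gene had 1 sign on every array, with a bar at each list's median and a dashed line at the median of all genes. The median of receptors and matrix partners is -1.01, and the other 3 lists have medians between -0.33 and -0.26. The lists were written with earlier results of these data known.

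Genes of cell surface receptors and matrix proteins were described next, and whether each product binds SPARC, CCN1, CCN2 or tenascin C was not examined. Of 33 listed genes of receptors and matrix partners, 16 were tested, with a median of -1.01. Like the other lists, this one was written with earlier results of these data known, and it holds Col1a1, Col1a2 and Fn1. Of the 16 tested, 9 were below 0 on every array, as were 13% of all genes, and 1 was above 0 on every array, as were 9.58%. A mean of -1 or below was found for 8, as for 7.7% of all genes, and 0 were called. Without the dye term Fn1 was called by limma, and with each probe tested separately probes of Col1a1, Col1a2 and Fn1 were. The type I collagen genes, whose product SPARC binds, had means of -4.91 ± 1.46 (Col1a1) and -3.36 ± 0.69 (Col1a2, adjusted p = 0.105 in limma). Fn1, the gene of fibronectin, had -4.38, -3.94, -3.57 and -3.68 on arrays 1 to 4, with a mean of -3.89 (adjusted p = 0.105 in limma). Stab1, which encodes a scavenger receptor known to take up SPARC in macrophages, had -3.92, -0.99, -0.58 and -1.83. Vcam1, the gene of a vascular adhesion molecule, had -1.72 ± 1.35, with -0.90 in the Cy5 orientation and -2.53 in the Cy3 orientation. Cd44, the gene of the hyaluronan receptor, was the single gene above 0 on every array, with 0.49, 1.32, 1.52 and 2.15. The 6 genes with mixed signs were Lrp1 (mean -0.93), Col4a2 (-0.29), Col4a1 (-0.18), Itgb1 (-0.12), Ddr2 (0.17) and Col3a1 (0.89).

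Upstream regulators lay closer to 0. Of 35 listed genes of TGF-beta, Hippo, SRF and AP-1 signalling, 15 were tested, with a median of -0.33. Among the 15, 2 (13.3%) were below 0 on every array, near the 13% of all genes. Another 2 were above 0 on every array, as were 9.58% of all genes, and 0 were called. The transcription factor gene Klf4 had -2.18, -0.96, -3.90 and -0.39, and Junb had -0.39 ± 0.21. The AP-1 genes Fosl1 and Jun had means of 1.25 ± 0.32 and 0.53 ± 0.51.

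Of 29 listed targets of YAP or SRF, factors that also act on Ccn1 and Ccn2, 18 were tested, with a median of -0.31. Of these, 5 were below 0 on every array, as were 13% of all genes. Above 0 on every array were 0 of them, against 9.58% of all genes, and 0 were called. Ankrd1, a known target of YAP, had -1.42, -0.80, -2.71 and -1.39. Gadd45b, a stress-induced gene, had -1.51, -0.87, -1.70 and -1.33. Both were below 0 on every array, and their orientations overlapped. Dusp1, a phosphatase gene that limits MAP kinases, had -0.80 ± 0.43, with means of -0.46 in the Cy5 orientation and -1.13 in the Cy3 orientation. Fhl1 had -0.62 ± 0.63, with orientation means of -0.09 and -1.15. The tropomyosin gene Tpm1 had -0.33 ± 0.29, with -0.41 and -0.25.

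Over the whole table, 76.8% to 94.6% of spots had a value on an array, and the ratios of 2 arrays correlated weakly across genes, which are not independent replicates (Pearson's r between 0.123 and 0.202). Of 11 listed fibroblast markers 6 were tested, with a median of -0.06. Of these Vim had 0.66 ± 0.18 while both type I collagen genes were far below 0. Markers of other cell types had medians of -0.44 (4 of 7 adipocyte genes tested), 0.01 (6 of 8 endothelial), 0.35 (3 of 7 epithelial), -0.22 (3 of 10 macrophage and leukocyte) and -0.17 (6 of 9 muscle). Fewer cells of a type and less RNA per cell cannot be told apart in such samples.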

How the data were processed

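The processed values that the authors deposited are log2 ratios of 4 arrays for 20355 spots. The scale was read from the values. How images were analysed and ratios normalized is not given in the sources used here. Array medians over the genes tested were 0.10, -0.01, -0.14 and -0.16 for arrays 1 to 4. Whether the arrays were centred, and the direction, are thus unstated.

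Ratios beyond 15 either way (63, 120, 121 and 114 on arrays 1 to 4) are capped and were dropped. Rows up to 6000 were used as they stand. For probes in rows 8001 to 18000 the columns of arrays 2 to 4 were shifted by 3 rows against array 1, and by 4 rows from row 18301 on; 2300 rows were dropped. Across named probes, the mean Spearman correlation of array 1 with the others was 0.127 in the first rows. It was -0.01 and -0.02 in these lower blocks as deposited, and 0.115 and 0.124 after the shift. The number of arrays limits the precision. Of the probes, 14030 had 1 symbol, 5 several and 6320 were unnamed here; 13994 matched a RefSeq gene. A gene's probes were averaged.

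Genes with a value on all 4 arrays were tested with limma 3.58.1 in R 4.3.3 (lmFit and eBayes, with a mean and a dye term), with Benjamini-Hochberg adjustment over all 6327 genes. Tested on simulated ratios with the spread of these genes, limma called 24 of 100 genes changed by 2 log2 units and 67 of 100 changed by 4. The genes and lists were chosen with earlier results of these data known. Beside the 4 members, a list's genes are named if among the 5 lowest or 3 highest with 1 sign on every array, and the 3 nearest genes of each member are named. The tested receptors and matrix partners with mixed signs are named as well. The alternatives tried are in the closing section.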

Additional observations from a re-analysis of the deposited data

Results flagged for a closer look

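Of 31 gene and probe values checked for 1 array far from the other 3, 1 stood out, where chance gives about 1.55. Lgals3 had 1.70 on array 1 and 0.13, 0.15 and 0.23 on arrays 2 to 4, a gap of 0.932 of the whole range. No such array was found for Sparc, Ccn1, Ccn2 or Tnc, by gene or by any of their probes measured on all 4 arrays.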

How the results depend on the processing

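Settings for array constants and for Ccn1 and Ccn2 probes were added after the data were seen, and the others were planned. The means of Sparc, Ccn1, Ccn2 and Tnc kept their sign under every alternative run. Sparc passed without the dye term (-3.14, adjusted p = 0.0418) and under no other. Its adjusted p ranged up to 0.775. Leaving out 1 array gave means of -3.34 to -2.94 for Sparc, -2.70 to -2.001 for Ccn1, -2.23 to -1.21 for Ccn2 and -0.36 to -0.19 for Tnc. The mean of Ccn1 was -3.52 by its probe with the smaller p. The 0 genes called became 6 without the dye term and 1 with arrays scaled, and 6 probes, of 4 genes, were called when each probe was tested separately. The sign of dye coefficients near 0 turned: for Sparc (-0.01, and -0.57 with 1:1 ratios set to 0) 0.12 in the lower rows, 0.48 as deposited and -0.21 to 0.19 without 1 array, for Tnc -0.030 when each probe was tested separately and -0.42 with 1:1 ratios set to 0. Genes below 0 on every array numbered, in the lower rows alone, 0 of the matricellular family, 3 of the partners, 0 of the regulators and 1 of the targets, where fewer genes were tested. The regulators numbered 1 after centring and 1 with 1:1 ratios set to 0, and 2 to 5 without 1 array. The family numbered 5 with at least 3 arrays and 3 to 6 without 1 array. Fits with other rows, arrays or missing values also changed which genes were tested. The other causes were not tested. Each ratio already pairs both lines within 1 array, and the arrays form 1 group, so no further pairing was possible.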
